A study of Mus musculus with 10 samples.

Results

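The Sprouty proteins (Spry1, Spry2, Spry4), the Spred proteins (Spred1, Spred2) and Errfi1 are inhibitors of receptor tyrosine kinase signalling, and their transcripts are described here in the mouse heart. All probe sets that the platform annotation assigns to 1 of these 6 symbols alone were taken, which gave 22 of the 45037 probe sets measured, for 6 of 18193 genes: 8 for Spred1, 5 for Spred2, 4 for Spry4, 2 each for Spry2 and Errfi1, and 1 for Spry1. The genes were selected on earlier results of these data, in which Errfi1 and Spry4 had differed between genotypes under PBS. Values of that difference, and of every comparison that shares its arrays, are therefore given as a description without a test, and nothing is read from the counts of probe sets past a threshold in them. The difference between genotypes under AngII compares other arrays and was tested. Its error and p still draw on a spread estimated over all arrays, those under PBS included.

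Angiotensin II (AngII), a hormone that constricts vessels and under long infusion causes hypertrophy of the heart, was given to mice that lack the atypical protein kinase C isoform PKCz (PKCz -/-, here KO) and to wild-type (WT) littermates. All were male SV129 mice aged 32 weeks, and the labels give the tissue as heart. AngII was given at 432 µg/kg/day for 14 days from osmotic minipumps placed under the skin. The 4 groups were KO AngII (n = 2 arrays), KO PBS (n = 3), WT AngII (n = 3) and WT PBS (n = 2), where PBS is the solvent; the source label of the controls calls them non-treated, and the titles name PBS. An array such as WT AngII 2 is named by its group and the number in its title. The labels name no single animal, so the errors and p-values below measure the spread between these arrays only. No cell type or promoter restricts the PKCz deletion in the labels. All levels are log2 expression values of an Affymetrix array, so that a difference of 1 is a 2-fold change, and levels of separate probe sets are not set against each other.

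Receptor tyrosine kinases such as the receptors for EGF and FGF pass growth signals through the adaptor Grb2 and the small GTPase Ras to the kinases Raf, MEK and ERK. Sprouty and Spred proteins act on the steps between the receptor and Raf, and Errfi1 (also called Mig6) binds the kinase domain of the EGF receptor family and blocks it. Sprouty and Errfi1 transcripts are themselves induced by receptor and ERK activity, which makes these proteins feedback inhibitors; in the heart such signalling acts in muscle growth, vessels and fibroblasts.

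Some features of the arrays move with the groups and bear on every comparison. The mean signal of the 24 probe sets for bacterial RNA spikes lay between 6.90 and 7.08 on KO AngII 3, KO AngII 4 and KO PBS 4, and between 12.86 and 13.33 on the other 7 arrays, so that both KO AngII arrays differed from all WT AngII arrays in this way. Genotype and spike signal under AngII can be separated only through KO PBS 4, in a fit with the spike signal as a block. WT AngII 2 stood apart: its mean level of 9 fibroblast and matrix markers was 12.16, against 9.34 to 10.48 on the other arrays, and that of 8 macrophage markers was 10.06, against 8.54 to 9.12. The WT PBS arrays had the highest mean levels of 23 immediate early genes, 9.14 and 9.67, against 7.83 to 8.76 on the other 8 arrays. Their 18S signal was also the highest, at 9.39 and 8.18 against 6.65 to 8.07. The difference between 3′ and 5′ probe sets of β-actin, a sign of RNA quality, was 1.17 and 1.70 on WT PBS and 0.74 to 1.38 on the other arrays. This difference was 0.74 to 0.83 on the 3 arrays of low spike signal and 0.92 to 1.70 on the other 7. Both KO AngII arrays thus lay below all WT AngII arrays in this measure too. The 8 cardiomyocyte markers averaged 14.07 to 14.20 on every array. Prkcz, the deleted gene, was measured by 1418085_at at 5.70 to 5.87 on the 5 KO arrays and 6.23 to 6.45 on the 5 WT arrays. Its other probe sets did not separate the genotypes in this way: 1449692_at averaged 6.09 ± 0.09 on KO and 5.98 ± 0.06 on WT arrays (SD, n = 5 each), and 1454902_at read 5.60 to 5.75 on KO and 5.68 to 5.91 on WT arrays.

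Errfi1 is shown first because its level varied most among these genes, and the sequences are those around its annotated transcription starts. RefSeq gives 2 starts for mouse Errfi1 on the plus strand of GRCm38.p6, each shown from 250 bases before to 50 bases after the start. The upstream window lies at chr4:150853546-150853845 and the downstream window at chr4:150854820-150855119. Capitals mark the motif letters found.
Errfi1 upstream start: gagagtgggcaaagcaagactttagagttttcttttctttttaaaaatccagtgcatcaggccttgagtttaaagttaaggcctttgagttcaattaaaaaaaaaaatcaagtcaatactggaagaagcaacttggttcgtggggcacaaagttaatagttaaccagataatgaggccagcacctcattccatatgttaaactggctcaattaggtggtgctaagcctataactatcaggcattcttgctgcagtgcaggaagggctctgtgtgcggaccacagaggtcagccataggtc
Errfi1 downstream start: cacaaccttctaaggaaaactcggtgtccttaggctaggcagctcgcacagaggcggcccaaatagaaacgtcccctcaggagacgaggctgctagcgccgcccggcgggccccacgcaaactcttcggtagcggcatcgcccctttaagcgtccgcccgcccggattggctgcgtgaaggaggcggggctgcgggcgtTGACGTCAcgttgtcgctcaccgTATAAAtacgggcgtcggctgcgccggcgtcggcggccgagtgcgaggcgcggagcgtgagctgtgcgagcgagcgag
The following motifs were searched on both strands: the cyclic AMP response element (TGACGTCA), the AP-1 site (TGANTCA), an EGR site (GCGNGGGCG), the CArG box of serum response factor and a TATA box (TATAAA). The AP-1 site is 1 letter shorter than the cyclic AMP response element, and the same letters cannot match both. The downstream window held the cyclic AMP response element with its first base at −51 and the TATA box with its first base at −28, where −1 is the base before the start. The upstream window held none of the 5. Of 32851 promoter windows of this length, 1.79% held the cyclic AMP response element, 7.81% AP-1, 5.55% EGR, 1.63% the CArG box and 13.6% the TATA box. None of the 5 was found in the windows of Spry1, Spry2, Spred1 and Spred2, and that of Spry4 was not analysed here. A match describes these letters and is not shown to be a site in use.

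Errfi1 was highest in WT PBS hearts. Probe set 1416129_at read 8.34 and 8.65 on the KO AngII arrays, 8.54, 8.72 and 7.77 on KO PBS, 9.25, 8.22 and 8.68 on WT AngII, and 10.09 and 10.90 on WT PBS. Both WT PBS arrays lay above all others, while the KO AngII, KO PBS and WT AngII groups overlapped. The group means were 8.49 ± 0.22, 8.34 ± 0.50, 8.72 ± 0.52 and 10.50 ± 0.57 in KO AngII, KO PBS, WT AngII and WT PBS hearts (SD, n = 2, 3, 3 and 2), and only the step to WT PBS exceeded the spread of the groups beside it. The difference of KO from WT was −2.15 ± 0.34 under PBS (SE), a 4.45-fold lower level in KO, and −0.23 ± 0.34 under AngII. Within WT hearts the difference of AngII from PBS was −1.78 ± 0.34, and within KO hearts it was 0.15 ± 0.34.

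The other Errfi1 probe set, 1419816_s_at, read 8.32 and 8.32 on KO AngII, 7.93, 7.78 and 7.79 on KO PBS, 8.55, 7.93 and 8.0 on WT AngII, and 8.68 and 8.76 on WT PBS. WT PBS was again above all other arrays, but here KO AngII also lay above all KO PBS arrays. The genotype difference under PBS was −0.89 ± 0.19, less than that of the first probe set, and under AngII it was 0.16 ± 0.19. Without WT AngII 2 the difference under AngII was 0.36 ± 0.14 (limma, unadjusted p = 0.0246, adjusted p = 0.871). AngII arrays were 0.49 ± 0.19 above PBS arrays in KO hearts and 0.56 ± 0.19 below them in WT hearts (difference −0.56). The 2 probe sets had a Pearson correlation of 0.83 over the 10 arrays, given as a description.

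Spry4, a Sprouty protein that inhibits Ras activation downstream of receptor tyrosine kinases, had 4 probe sets of very different mean level, and they did not share a pattern. The brightest, 1440867_at, read 7.24 and 7.35 on KO AngII, 7.33, 7.28 and 7.29 on KO PBS, 7.39, 7.44 and 7.60 on WT AngII, and 7.83 and 8.09 on WT PBS. All KO arrays lay below all WT arrays, and WT PBS lay above WT AngII. The difference of KO from WT was −0.66 ± 0.15 under PBS and −0.18 ± 0.15 under AngII.

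Probe set 1445669_at of Spry4, with a mean of 5.24 at the 29.9th percentile of all probe sets, showed the sharpest step. It read 4.88 and 4.97 on KO AngII, 4.89, 5.20 and 4.78 on KO PBS, 4.84, 5.0 and 5.22 on WT AngII, and 6.30 and 6.37 on WT PBS. The 3 groups other than WT PBS overlapped and sat at a dim level, and WT PBS stood more than 1 log2 unit above them. The difference of KO from WT was −1.38 ± 0.15 under PBS, a 2.60-fold lower level, and −0.09 ± 0.15 under AngII. AngII differed from PBS by −1.31 ± 0.15 in WT hearts and by −0.03 ± 0.15 in KO hearts.

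The remaining Spry4 probe sets ran the other way or were flat. Probe set 1422020_at read 5.88 and 6.02 on KO AngII, 5.69, 5.57 and 6.00 on KO PBS, 5.84, 5.87 and 6.00 on WT AngII, and 5.29 and 5.51 on WT PBS, so WT PBS was the lowest group here. Its difference of KO from WT under PBS was 0.35 ± 0.15. Probe set 1422021_at, the dimmest, read 4.88 to 5.28 over all arrays, with a difference of 0.22 ± 0.12 under PBS. The correlation over the 10 arrays was 0.93 between 1440867_at and 1445669_at and −0.80 between 1445669_at and 1422020_at. Where each probe set lies on the Spry4 transcript was not analysed here, so no level is assigned to the gene as a whole.

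**Figure D1:**
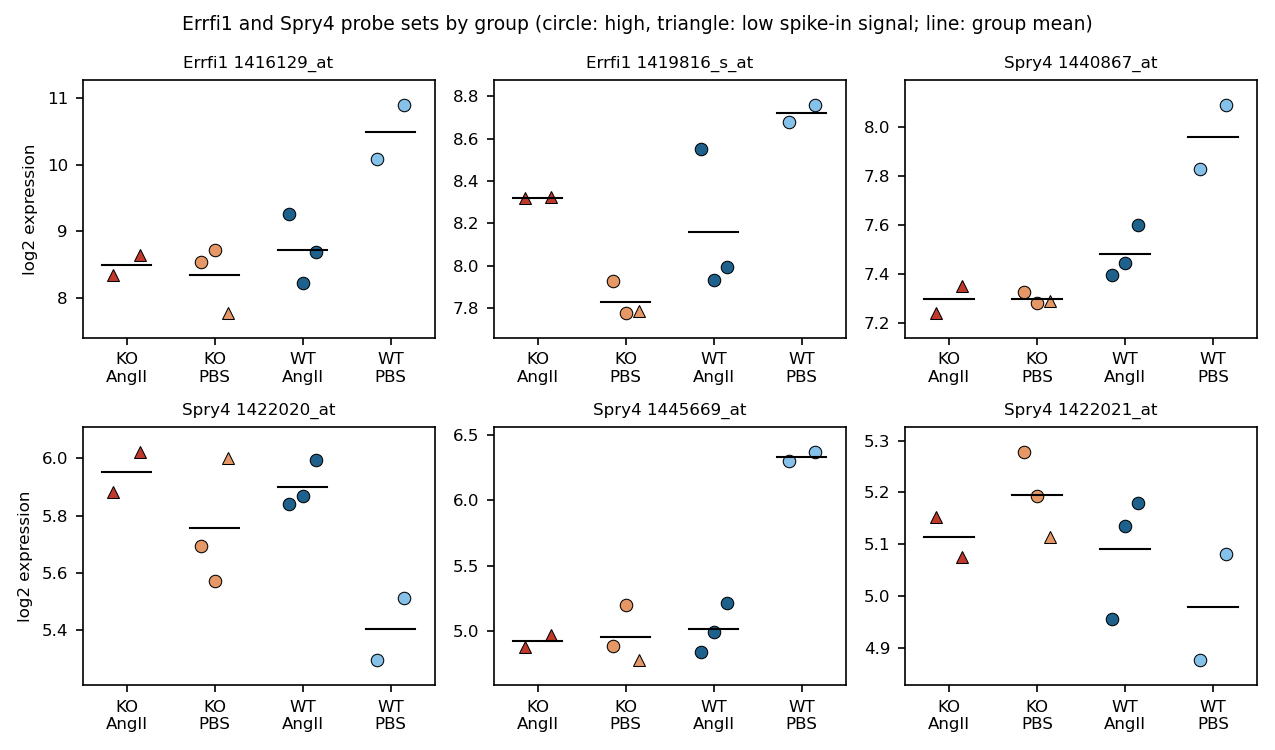
Log2 expression (y axis) of the Errfi1 and Spry4 probe sets on each array (points) of the KO AngII, KO PBS, WT AngII and WT PBS groups (x axis); lines are group means, and triangles are the 3 arrays of low spike signal. WT PBS lies above all other arrays in both Errfi1 probe sets and in Spry4 1440867_at and 1445669_at, and below them in Spry4 1422020_at.

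Across the 22 probe sets, both WT PBS arrays lay above all other arrays in 4 (both of Errfi1, Spry4 1440867_at and 1445669_at), which 3.71% of all probe sets did. They lay below all others in 1, Spry4 1422020_at, as 3.43% of all probe sets did. Since these arrays chose the genes, nothing is read from either count.

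Spry1, a Sprouty protein that restrains FGF and other growth factor signals, had the single probe set 1415874_at. It read 8.22 and 8.47 on KO AngII, 8.15, 8.39 and 8.52 on KO PBS, 9.32, 8.46 and 8.89 on WT AngII, and 8.48 and 8.55 on WT PBS. WT AngII 2 was the highest array, while WT AngII 3 lay within the range of the KO arrays. The difference of KO from WT under AngII was −0.55 ± 0.22 (limma, adjusted p = 0.734), and −0.33 without WT AngII 2; under PBS it was −0.16 ± 0.22.

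Spry2, which binds the ubiquitin ligase Cbl and Grb2, had 2 probe sets with little in common (correlation 0.19 over the 10 arrays). The brighter, 1436584_at, read 8.04 and 8.23 on KO AngII, 8.14, 8.52 and 8.25 on KO PBS, 8.30, 8.30 and 8.72 on WT AngII, and 8.62 and 8.68 on WT PBS. KO arrays lay below WT arrays under each treatment, by −0.30 ± 0.18 under AngII (limma, adjusted p = 0.734) and −0.35 ± 0.18 under PBS. Probe set 1421656_at read 6.05 to 6.86, with WT AngII 2 the lowest array and WT AngII 4 the highest.

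**Figure D2:**
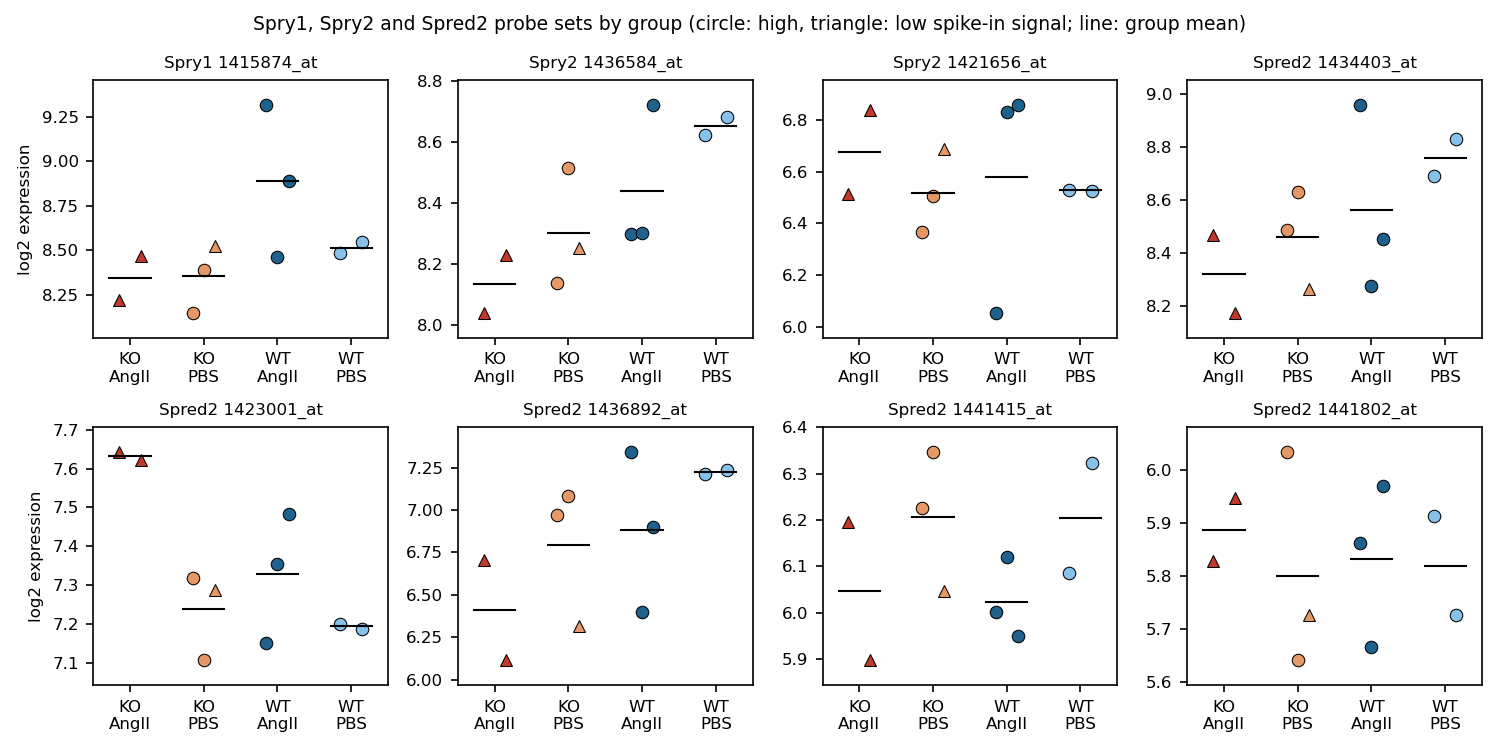
Log2 expression (y axis) of the Spry1, Spry2 and Spred2 probe sets on each array (points) of the KO AngII, KO PBS, WT AngII and WT PBS groups (x axis); lines are group means, and triangles are the 3 arrays of low spike signal. KO AngII lies above all other arrays in Spred2 1423001_at, and WT AngII 2 is the highest array in Spry1 1415874_at.

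Spred1, a membrane-bound protein that brings the Ras inactivator neurofibromin (Nf1) to the membrane, had 8 probe sets. The one that differed most between genotypes under AngII, 1460116_s_at, read 5.80 and 5.79 on KO AngII, 6.53, 6.84 and 6.05 on KO PBS, 7.62, 6.47 and 7.05 on WT AngII, and 7.14 and 7.66 on WT PBS. Both KO AngII arrays lay below all others, and the KO PBS and WT AngII groups overlapped between 6.47 and 6.84. The difference of KO from WT under AngII was −1.25 ± 0.31, a 2.38-fold lower level (limma, unadjusted p = 0.00168, adjusted p = 0.734). It was −0.96 without WT AngII 2 and −0.61 with the spike signal as a block, each with the same sign. Under PBS it was −0.92 ± 0.31, and −0.71 between the arrays of high spike signal alone. Within KO hearts AngII differed from PBS by −0.68 ± 0.31, and by −0.25 between the 3 arrays of low spike signal, of which 1 was a PBS array.

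Probe set 1452911_at of Spred1 read 6.17 and 6.14 on KO AngII, 6.34, 6.65 and 6.01 on KO PBS, 7.82, 6.54 and 6.80 on WT AngII, and 6.92 and 6.85 on WT PBS. KO AngII again lay below WT AngII, and WT AngII 2 was the highest array. The difference of KO from WT under AngII was −0.90 ± 0.31 (limma, unadjusted p = 0.0136, adjusted p = 0.734), −0.51 without WT AngII 2 and −0.41 with the spike signal as a block. Probe set 1423162_s_at had 5.79 and 5.79 on KO AngII, 5.78, 5.72 and 5.65 on KO PBS, 6.95, 5.80 and 6.13 on WT AngII, and 6.35 and 6.10 on WT PBS. All KO arrays lay below all WT arrays, by a margin of under 0.02 at KO AngII 4 and WT AngII 3. Its difference under AngII was −0.51 ± 0.26 (limma, adjusted p = 0.734) and −0.18 without WT AngII 2.

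The brightest Spred1 probe set, 1423160_at, read 8.14 and 8.37 on KO AngII, 8.34, 8.24 and 8.20 on KO PBS, 9.24, 8.03 and 8.56 on WT AngII, and 8.85 and 8.66 on WT PBS. KO PBS lay below WT PBS, and WT AngII held both the highest and the lowest array. Probe set 1423161_s_at showed the same wide WT AngII group, at 7.01 and 7.06 on KO AngII, 7.0, 6.87 and 7.03 on KO PBS, 8.31, 6.90 and 6.93 on WT AngII, and 8.07 and 7.28 on WT PBS. Probe set 1428777_at read 6.11 to 6.60 on all arrays but WT AngII 2, where it was 7.54. Probe sets 1443652_x_at (6.41 to 7.20) and 1445228_at (4.13 to 4.43) did not follow these. The other 6 correlated with each other at 0.54 to 0.95 over the 10 arrays, all of which include WT AngII 2.

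**Figure D3:**
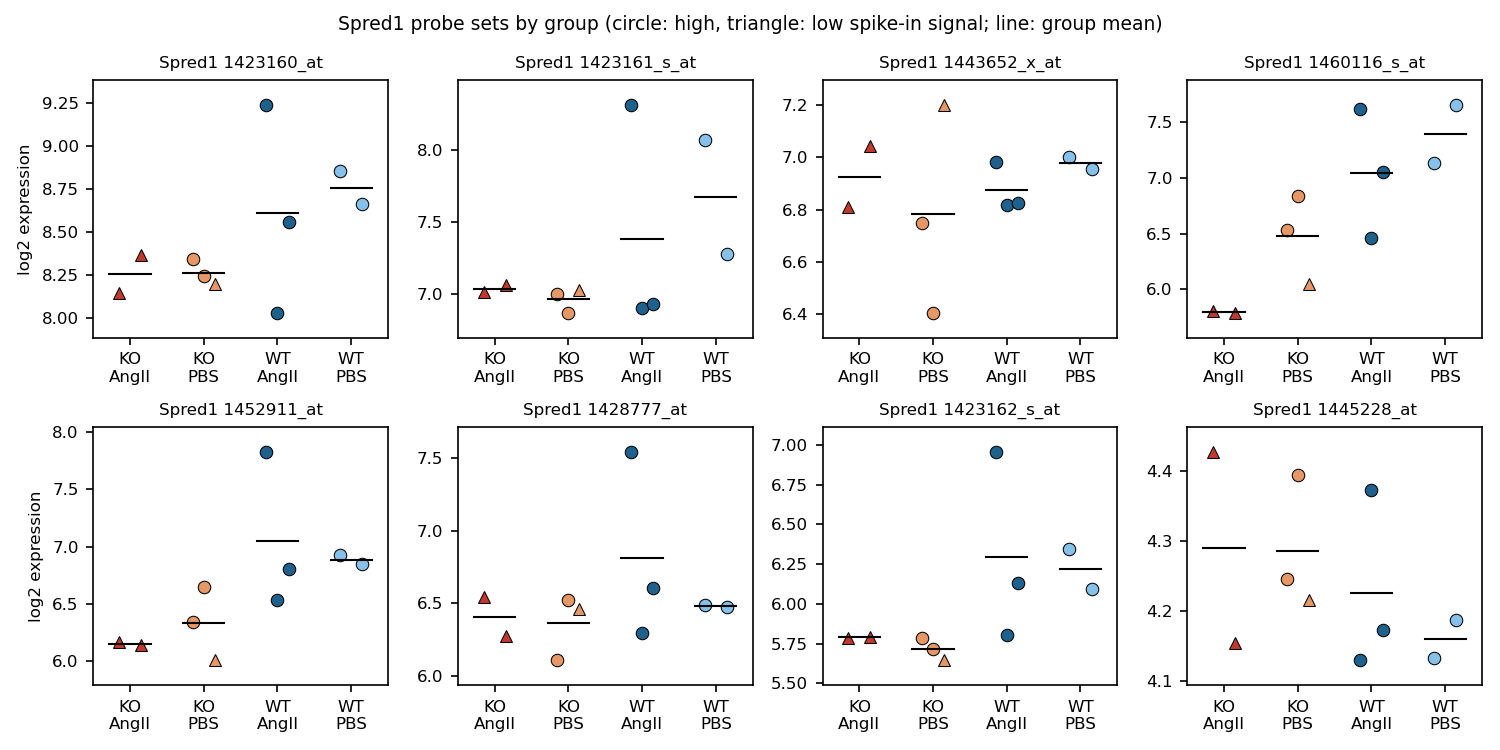
Log2 expression (y axis) of the 8 Spred1 probe sets on each array (points) of the KO AngII, KO PBS, WT AngII and WT PBS groups (x axis); lines are group means, and triangles are the 3 arrays of low spike signal. KO AngII lies below WT AngII in 1460116_s_at, 1452911_at and 1423162_s_at, and WT AngII 2 is the highest point in 5 of the panels.

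Spred2, the close relative of Spred1, had 5 probe sets. The brightest, 1434403_at, read 8.47 and 8.18 on KO AngII, 8.49, 8.63 and 8.26 on KO PBS, 8.96, 8.28 and 8.45 on WT AngII, and 8.69 and 8.83 on WT PBS. Probe set 1436892_at followed it (correlation 0.95 over the 10 arrays), with 6.70 and 6.11 on KO AngII, 6.97, 7.08 and 6.32 on KO PBS, 7.34, 6.40 and 6.90 on WT AngII, and 7.21 and 7.24 on WT PBS. In both the WT PBS arrays lay above KO PBS and the AngII groups overlapped.

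In probe set 1423001_at of Spred2 the KO AngII arrays were the highest, a difference that did not pass the test. It read 7.64 and 7.62 on KO AngII, 7.32, 7.11 and 7.29 on KO PBS, 7.15, 7.35 and 7.48 on WT AngII, and 7.20 and 7.19 on WT PBS. Both KO AngII arrays lay above all other arrays, by 0.30 ± 0.15 against WT AngII (limma, adjusted p = 0.734) and 0.39 ± 0.15 against KO PBS. It correlated at −0.67 with 1434403_at over the 10 arrays. The dim probe sets 1441415_at and 1441802_at read 5.90 to 6.35 and 5.64 to 6.03, with differences between genotypes of at most 0.06 in size.

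The tested comparison, KO against WT under AngII, called none of the 22 probe sets at an adjusted p under 0.05 (limma, adjusted p 0.734 to 0.970), where 5 of all 45037 were called (0.0111%). At an unadjusted p under 0.05 there were 3 of 22 (Spred1 1460116_s_at and 1452911_at and Spry1 1415874_at), a share of 13.6% against 6.51% of all probe sets. The groups did not overlap in 5 probe sets that were lower in KO, namely Spry2 1436584_at, Spry4 1440867_at and Spred1 1460116_s_at, 1452911_at and 1423162_s_at, which 11.2% of all probe sets did. They did not overlap in 1 that was higher in KO, Spred2 1423001_at, against 16% of all. Of the 22, 13 differences lay below 0, with a median of −0.21 against 0.03 over all probe sets. Without WT AngII 2 the median was −0.04. An unadjusted p under 0.05 was then again found in 3 of 22, against 5.53% of all probe sets. Errfi1 1419816_s_at, higher in KO, was among these without that array, and Spry1 1415874_at was not (limma, unadjusted p = 0.0973). With the spike signal as a block 0 of the 22 had an unadjusted p under 0.05, as 1.65% of all probe sets then did; the difference of Spry1 was −0.80 in that fit and Errfi1 1416129_at turned to 0.63.

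The difference under PBS is the one the genes were chosen by. As a description of the choice and not as a test, the adjusted p was under 0.05 in 1 of 22, Spry4 1445669_at (0.0133% of all probe sets), and the groups did not overlap in 12 that were lower in KO (10.8% of all) and 3 that were higher (13.2% of all). The median over the 22 was −0.33 against 0.01 over all probe sets, and 17 lay below 0. Between the arrays of high spike signal alone, Errfi1 1416129_at differed by −1.87 and Spry4 1445669_at by −1.29. Without KO PBS 2, WT PBS 3 or WT PBS 5 the count of adjusted p under 0.05 was 0. Without WT AngII 2 it was 3, which added both of Errfi1, and over all 45037 probe sets it rose from 6 to 22. Nothing is read from these counts.

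AngII was also set against PBS within each genotype. In WT hearts 0 of 22 were called (0% of all probe sets), with no overlap in 4 that were lower under AngII (11.3% of all), both of Errfi1 and Spry4 1440867_at and 1445669_at, and in 1 that was higher (8.4% of all), Spry4 1422020_at by 0.50 ± 0.15. In KO hearts 0 of 22 were called (0% of all), with no overlap in 3 that were higher under AngII (13.7% of all; Errfi1 1419816_s_at, Spred2 1423001_at and Spred1 1423162_s_at) and in 1 that was lower (10.8% of all), Spred1 1460116_s_at. Both KO AngII arrays were of low spike signal, as was only KO PBS 4 among the KO PBS arrays. With the spike signal as a block, 10 of the 22 differences in KO hearts changed sign. Those just named kept theirs, at 0.54, 0.35, 0.14 and −0.25 in the order given. The AngII effect in KO minus that in WT was 1.29 ± 0.21 for Spry4 1445669_at and 1.93 ± 0.48 and 1.05 ± 0.26 for the Errfi1 probe sets. The comparisons share the PBS arrays, and the levels of WT PBS enter 3 of them.

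**Figure D4:**
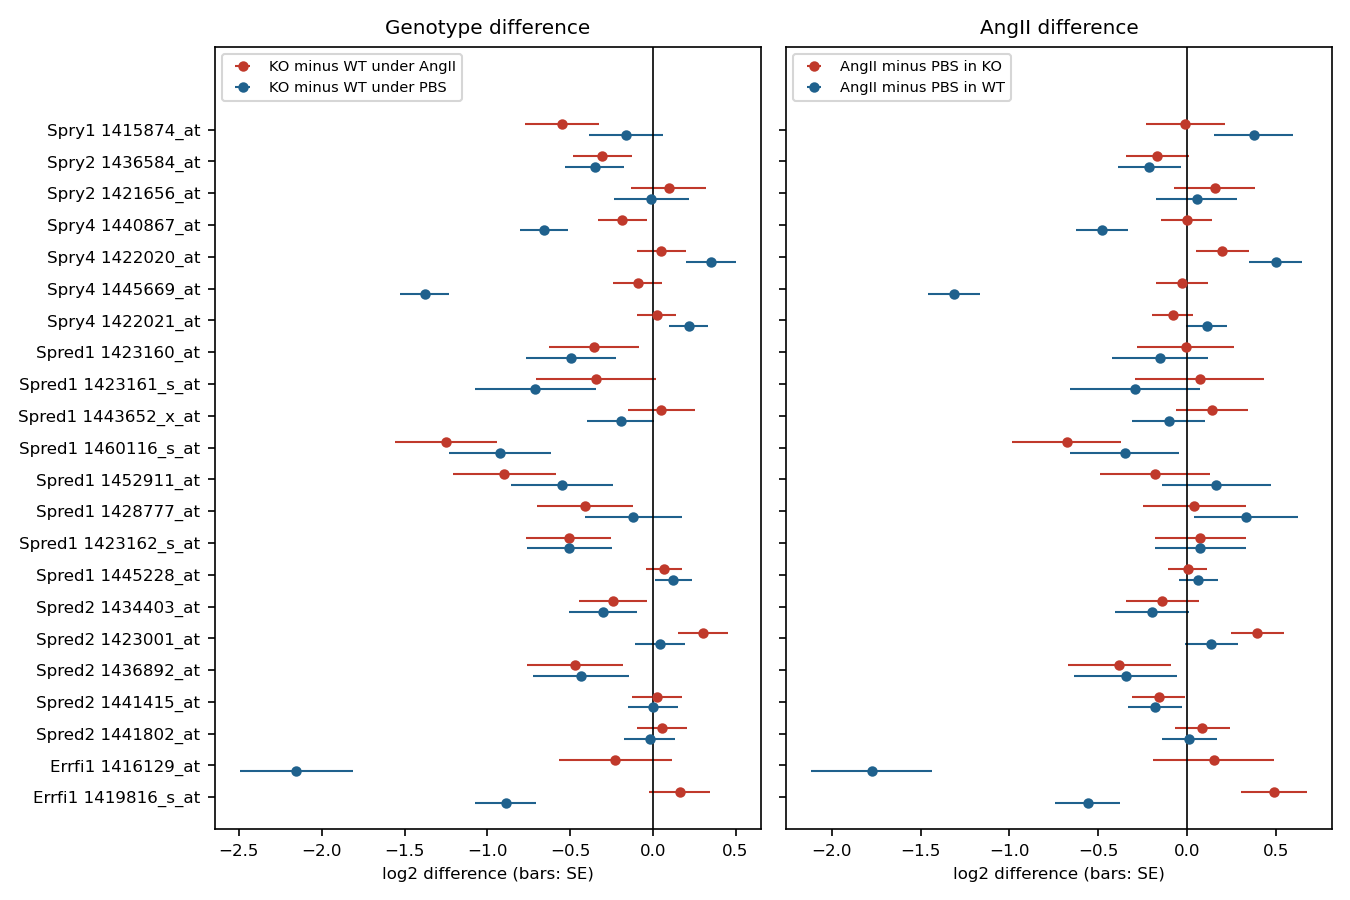
Log2 differences (x axis; bars are SE) of the 22 probe sets (y axis), for KO minus WT under AngII and under PBS (left) and for AngII minus PBS in KO and in WT (right). Errfi1 1416129_at lies at −2.15 under PBS and −1.78 in WT and Spry4 1445669_at at −1.38 and −1.31, against −0.23 under AngII and 0.15 in KO for the first and −0.09 and −0.03 for the second; Errfi1 1419816_s_at lies at −0.89 under PBS, −0.56 in WT and 0.49 in KO.

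WT AngII 2 was the highest of all arrays in 8 of the 22 probe sets, where it was so in 16.8% of all probe sets. Over the 10 arrays the mean of the fibroblast and matrix markers correlated at 0.76 with Spry1, 0.84 with Spred1 1428777_at and 0.71 with Spred1 1423162_s_at, as a description of points that include this array. The part of matrix cells in these values was not tested. In whole heart RNA, fewer cells of a type and less RNA per cell cannot be told apart.

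Errfi1 1416129_at correlated closely with the mean of the immediate early genes, transcripts such as Fos, Egr1 and Atf3 that appear within minutes of a stimulus. The mean of the 23 listed genes was 8.14 and 8.09 on KO AngII, 8.56, 8.44 and 7.83 on KO PBS, 8.76, 8.18 and 8.58 on WT AngII, and 9.14 and 9.67 on WT PBS. WT PBS was above all other arrays, as in both Errfi1 probe sets, and KO PBS 4 was the lowest array, as in Errfi1 1416129_at but not in 1419816_s_at. The correlation over the 10 arrays was 0.97 for Errfi1 1416129_at and 0.72 for 1419816_s_at. For Spry4 it was 0.88 for 1440867_at, 0.86 for 1445669_at and −0.74 for 1422020_at. It was 0.84 for Spred1 1460116_s_at, 0.80 for Spred2 1436892_at, 0.78 for Spred2 1434403_at, 0.67 for Spry2 1436584_at and 0.64 for Spred1 1423160_at. The remaining probe sets ran from −0.51 (Spred2 1423001_at) to 0.60 (Spred1 1452911_at). These are descriptions, since the points share arrays, RNA and normalisation. Under PBS 22 of the 23 genes lay below 0 in KO against WT, with a median of −0.88 against 0.00 over all genes, and Egr2 differed by −2.64 ± 0.49. For AngII against PBS in WT hearts 22 of 23 lay below 0, with a median of −0.65. None of the 23 was called in either comparison (limma). For KO against WT under AngII 19 of 23 lay below 0, and again none was called. The median there was −0.34, which was −0.17 without WT AngII 2 and turned to 0.31 with the spike signal as a block. The 18S signal given above was also highest on the WT PBS arrays. The β-actin difference was the highest of all arrays on WT PBS 5, at 1.70, and within the range of the others on WT PBS 3, at 1.17. The part of either in these levels was not tested.

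**Figure D5:**
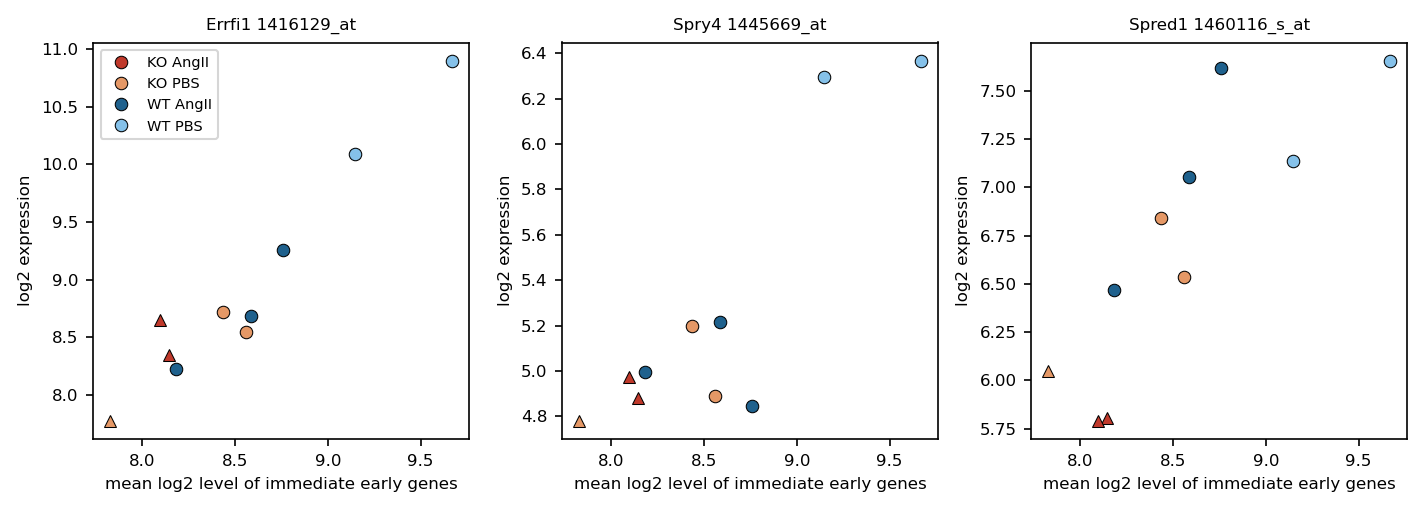
Log2 expression (y axes) of Errfi1 1416129_at, Spry4 1445669_at and Spred1 1460116_s_at against the mean log2 level of 23 immediate early genes (x axis), a point per array, coloured by group, with triangles for low spike signal. Errfi1 1416129_at lies between 7.77 and 9.25 where the list mean is at most 8.76 and at 10.09 and 10.90 on WT PBS, and Spry4 1445669_at lies between 4.78 and 5.22 and then at 6.30 and 6.37.

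The genes whose pattern over the 10 arrays was most like that of each member were taken by the highest correlation among genes at or above the median level. For Errfi1 1416129_at they were Dcun1d3 (0.97), Otud1 (0.95) and Cdc42se2 (0.95), and for Spry4 1445669_at Ifrd1 (0.95), Msl1 (0.92) and Srsf3 (0.92). Spry4 1440867_at was nearest to Abtb2 (0.95), Plscr2 (0.93) and Wdfy2 (0.92), and 1422020_at to Zbtb49 (0.94), Gpr3 (0.91) and Slco4a1 (0.91). Spry4 1422021_at was nearest to E230025N22Rik (0.90), Kcnip1 (0.87) and Hpn (0.87). Spry1 was nearest to Nptn (0.98), Eid1 (0.97) and Necap2 (0.96), Spry2 1436584_at to Klhdc2 (0.98), Kctd9 (0.96) and Gtf2a2 (0.93), Spred1 1423160_at to Nras (0.96), Tgfbi (0.95) and Fndc3a (0.95), and Spred2 1434403_at to Dnajc1 (0.98), Slc36a1 (0.97) and Cerk (0.97). These are descriptions over 10 arrays of all 4 groups, with no p.

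Other genes of the pathway were read from 7 lists by role, in which 87 of 94 genes were measured, each by its brightest probe set. None was called in any of the 5 comparisons (limma, lowest adjusted p 0.734 for KO against WT under AngII). In that comparison 9 of 87 had an unadjusted p under 0.05, against 6.51% of all probe sets. Under AngII 31 of the 87 lay above 0 and 56 below in KO against WT, with a median of −0.11 against 0.00 over all genes. Among the ligands, 11 of 17 lay above 0: Vegfa, a growth factor of vessels, differed by 0.54 ± 0.22 and Pdgfc, a ligand of the PDGF receptors, by −0.61 ± 0.18. Among the receptors, 10 of 15 lay below 0, with Met, the HGF receptor, at −0.53 ± 0.24 and Fgfr1 at −0.72 ± 0.34. The receptors' median of −0.18 was −0.038 without WT AngII 2 and turned to 0.030 with the spike signal as a block. Of 12 adaptors and Ras proteins 9 lay below 0, with the adaptor Shc1 at −0.43 ± 0.20, and of 7 Raf, MEK and ERK kinases 5 did, while the scaffold Ksr1 was at 0.48 ± 0.17.

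Of 10 proteins that Sprouty, Spred and Errfi1 bind 6 lay below 0, with the ubiquitin ligase Cblb at −0.38 ± 0.21 and the kinase Tesk1 at −0.34 ± 0.19. Of 14 other feedback inhibitors 10 lay below 0, with the ERK phosphatase Dusp6 at −1.30 ± 0.39 and Socs4 at −0.34 ± 0.16, and their median of −0.15 turned to 0.055 with the spike signal as a block. Of 14 transcripts that respond to ERK 12 lay below 0, with a median of −0.29 that turned to 0.20 with the spike signal as a block, and Egr1, a transcription factor, differed by −1.36 ± 0.43. Under PBS, Hbegf, a ligand of the EGF receptor that Errfi1 inhibits, differed by −1.55 ± 0.32 in KO against WT, and within WT hearts AngII differed from PBS by −1.11 ± 0.32. Hbegf was picked by its smallest unadjusted p among the 17 ligands, and both values rest on the WT PBS arrays that chose Errfi1. The median of these ligands was −0.07 under PBS, with 11 of 17 below 0. For AngII against PBS in WT hearts it was −0.04, with 10 of 17 below 0.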

How the data were processed

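Hearts of the 4 groups were measured on 10 Affymetrix arrays. The deposited values are on a log2 scale and come from RMA, per the submitters' processing notes. This method subtracts background, gives the probe intensities of every array the same distribution and summarises the probes of a set. It compresses small differences of dim probe sets. Its version: not given in the sources used here. The array medians of the deposited values ran from 6.13 (WT PBS 5) to 6.24 (KO AngII 3). They were highest on the 3 arrays of low spike signal, with 6.23 on KO AngII 4 and on KO PBS 4. After removal of 64 control probe sets, 45037 were kept, of which 34945 had 1 symbol in the platform annotation, and 34741 symbols were brought up to date by Entrez identifier with RefSeq (GRCm38.p6). The number of arrays limits the precision.

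All differences come from limma 3.58.1 (R 4.3.3), fitted to the 10 arrays as 4 group means with a trended eBayes and 6 residual degrees of freedom. Tests were two-sided, adjusted by Benjamini-Hochberg across the 45037 probe sets of a comparison, and called at an adjusted p under 0.05. The members, lists and tests were chosen with earlier results of these data known. All 22 probe sets are named, list genes by the smallest unadjusted p as values, and like genes by the 3 highest Pearson correlations; Fos, Atf3 and Hbegf, under PBS and in WT, are examples or have the smallest p of their list. The scripts were tested on simulated data. Alternatives were array scaling (equal medians, repeated quantile normalisation), a filter on dim probe sets, eBayes with no trend, array weights, blocks for the title number or the spike signal, smaller fits of only the groups compared, another summary of a gene's probe sets, and each array left out in turn. Fits within arrays of high or of low spike signal were chosen after seeing the data.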

Additional observations from a re-analysis of the deposited data

Results flagged for a closer look

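Errfi1 1419816_s_at differed in opposite directions between genotypes in its response to AngII. Both KO AngII arrays (8.32 and 8.32) lay above all KO PBS arrays (7.78 to 7.93), and all WT AngII arrays (7.93 to 8.55) lay below both WT PBS arrays (8.68 and 8.76). In the brighter Errfi1 probe set, 1416129_at, KO AngII overlapped KO PBS, with a difference of 0.15 ± 0.34. Both KO AngII arrays were of low spike signal, as was KO PBS 4. Between these arrays alone the difference was 0.54 in 1419816_s_at and 0.72 in 1416129_at. For 1419816_s_at the AngII effect in KO minus that in WT was 1.05 on the log2 scale. This difference was not tested here, because the PBS arrays in it chose the gene, and no p of it is reported.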

How the results depend on the processing

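Called member probe sets under AngII (KO against WT) were 0 in every setting but array weights, which gave 4 (Spry1 1415874_at −0.52, Spry2 1436584_at −0.54, Spred1 1460116_s_at −1.22 and 1452911_at −0.65) and called 11 pathway genes; it weighted WT AngII 4 by 7.20 and WT AngII 2 by 0.22. The number of all probe sets called with array weights is not given here, so no count from that setting has a background beside it. The counts of adjusted p under 0.05 in the comparisons that share the PBS arrays are descriptions from which nothing is read. Under PBS the count of 1 became 2 with array weights and 0 without the probe sets below the median level (which leaves out Spry4 1445669_at), with the replicate block, with only the arrays compared and within the high spike signal; leaving out 1 array gave 0 to 3. The 3 came without WT AngII 2, where 22 of all 45037 probe sets were called, against 6 in the fit of all 10 arrays. For AngII against PBS in WT, array weights gave 4, and leaving out 1 array gave 0 to 1. Without WT AngII 2, which gave 1 here, 3 of all 45037 probe sets were called, against 0 in the fit of all 10 arrays. With each gene read as the average over its probe sets, the median of the ERK-response transcripts (KO against WT under AngII) was −0.22. Same-numbered arrays correlated at −0.36 to 0.10 in their deviations from the group means, and differently numbered ones at −0.31 to 0.31. In a group of 2 arrays the deviations mirror each other, so these correlations cannot decide whether the title numbers pair the arrays. The cause of these changes was not tested beyond the arrays and probe sets each setting leaves out.

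Small genotype differences under AngII changed sign. With array weights they were −0.16 for Spry2 1421656_at, −0.028 for Spry4 1422020_at, −0.056 for Spry4 1422021_at, 0.069 for Spred1 1423161_s_at and −0.055 for Spred2 1441802_at. With the spike signal as a block they were −0.16 for Spry2 1421656_at, −0.32 for Spry4 1422020_at, 0.17 for Spry4 1445669_at, −0.57 for Spred1 1443652_x_at, 0.054 for Spred2 1434403_at, 0.24 for Spred2 1436892_at and 0.63 for Errfi1 1416129_at. With the replicate block Spry2 1421656_at was −0.075. With equal array medians they were −0.0052 for Spry4 1422020_at, −0.033 for Spry4 1422021_at, −0.0059 for Spred1 1443652_x_at, −0.034 for Spred2 1441415_at and −0.0016 for Spred2 1441802_at. With repeated quantile normalisation they were −0.011 for Spry4 1422020_at, −0.047 for Spry4 1422021_at, −0.038 for Spred2 1441415_at and −0.0061 for Spred2 1441802_at. Leaving out 1 array gave −0.17 to 0.26 for Spry2 1421656_at, −0.018 to 0.12 for Spry4 1422020_at, −0.18 to 0.0073 for Spry4 1445669_at, −0.043 to 0.069 for Spry4 1422021_at, −0.59 to 0.12 for Spred1 1423161_s_at, −0.065 to 0.17 for Spred1 1443652_x_at, −0.071 to 0.20 for Spred1 1445228_at, −0.13 to 0.17 for Spred2 1441415_at, −0.029 to 0.12 for Spred2 1441802_at and −0.48 to 0.041 for Errfi1 1416129_at. Groups of 2 or 3 arrays, dim probe sets and the spike signal limit all of these values.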
